A study of Mus musculus with 49 samples.

Results

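Neocortical RNA from rNLS8 mice immunized with TDP-43 peptides was compared with RNA from rNLS8 mice that received PBS. The question was what immunization itself did to the cortical transcriptome of this model, whichever antigen of the series was used. The comparison held 32 of the 49 mice of the series, chosen by the genotype and treatment given in their labels. All bigenic mice of the series that received peptides formed the immunized group (22 mice, 11 females and 11 males). The bigenic mice that received PBS formed the TDP-PBS group (10 mice, 4 females and 6 males). Bigenic mice that the study gave peptides from other TDP-43 domains are not in the series. The immunized group joined 10 mice given peptides 10 and 12 together (TDP10 + 12) and 12 mice given peptide 15 (TDP15), antigens from the C-terminal domain of TDP-43 that were coupled to ovalbumin. The 17 monogenic ctrl PBS littermates stayed in the fit to help estimate the spread between mice and to give background levels. The genetic background of all mice was a mix of C57BL/6J and C3H/HeJ. Injections of 40 µg antigen or of PBS were given 5 times from 8 weeks of age and once more after doxycycline withdrawal at 25.5 weeks, and the cortex was taken at 28.5 weeks, 3 weeks after transgene induction.

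The rNLS8 model combines a tetracycline transactivator under the human neurofilament heavy chain promoter (NEFH-tTA) with a tetO-driven human TDP-43 that lacks its nuclear localization signal. Without doxycycline, neurons in which that promoter is active express the mislocalized protein. Active immunization makes B cells mature into plasma cells that secrete antibodies against the peptide. Antibodies that reach the brain would meet Fc receptors on microglia, the complement cascade and, inside cells, the antibody receptor Trim21. The peptides were given with CpG oligonucleotides, which are sensed by Tlr9, and with an aluminium adjuvant. The PBS mice received PBS in place of the conjugates, and the sources used here do not say whether it held the adjuvants, so effects of peptide, ovalbumin carrier and adjuvant cannot be told apart. In bulk tissue, fewer cells of a type and less RNA per cell cannot be told apart either.

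Total counts per mouse lay between 17775738 and 21033608, with a median of 19684870 in TDP-PBS and 19943010 in immunized mice. Levels are given as CPM, counts scaled to a common library size after TMM scaling, and 3 counts correspond to 0.139 to 0.165 CPM. The vesicular glutamate transporter Slc17a7, a marker of cortical excitatory neurons, was at 1378 to 2141 CPM in the 32 mice. Prnp, the prion protein gene, did not overlap between the genotypes, with 434 to 524 CPM in ctrl PBS against 802 to 1672 CPM in the 32 rNLS8 mice. Tardbp, the endogenous TDP-43 gene, had a median of 147 CPM in ctrl PBS, 120 CPM in TDP-PBS and 120 CPM in immunized mice.

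No gene passed the threshold between immunized and TDP-PBS mice. Of 18220 genes tested, 0 were called with edgeR's quasi-likelihood test at an adjusted p under 0.05 (0%), and the smallest adjusted p was 0.999964. DESeq2 and limma-voom with quality weights also called 0 genes. At an unadjusted p under 0.05, edgeR listed 564 genes (3.1% of those tested) and limma-voom 891. For comparison, 5% of the 18220 genes tested would be 911. DESeq2 listed 827, but it was run without the expression filter on a table of 45252 genes. Its count therefore cannot be set against 911 or the edgeR share, and the same holds for every DESeq2 count below. Of the 564 genes, 325 were higher (1.78%) and 239 lower (1.31%) in immunized mice. With scaling to the library total alone the split was 406 higher and 155 lower.

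The median standard error of the log2 fold change was 0.08, and for 14540 genes (79.8%) the whole 95% interval lay within 0.5 log2 either way. For 17648 genes (96.9%) it lay within 1 log2. The median log2 fold change over all genes tested was -0.00058, and only 22 genes had an estimate beyond 1 log2 in either direction. Genes at an unadjusted p under 0.05 had small differences, with a median absolute log2 fold change of 0.25 among the higher and 0.19 among the lower ones.

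**Figure D1:**
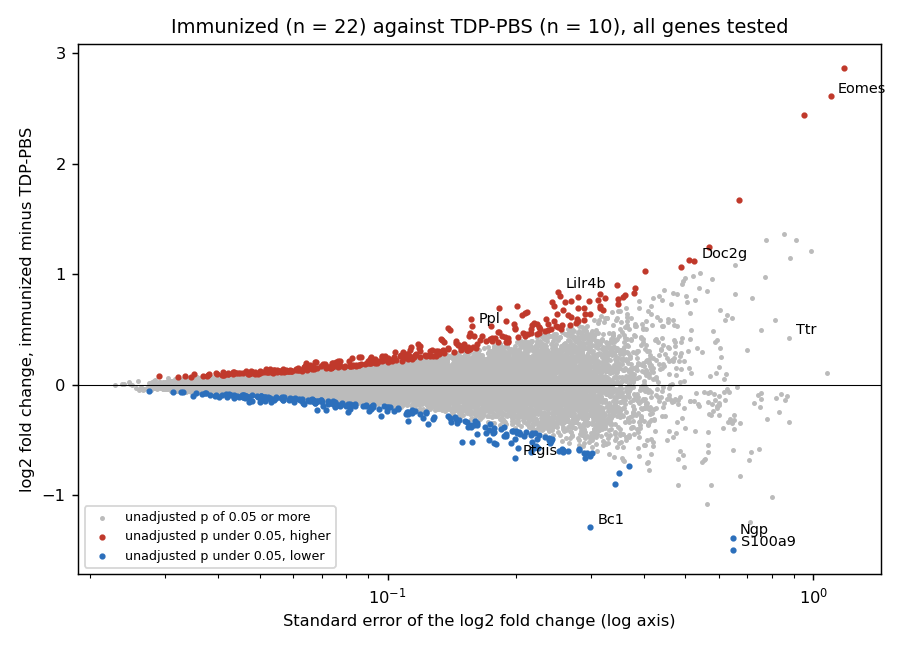
Log2 fold change of each gene tested between immunized (n = 22) and TDP-PBS mice (n = 10), against its standard error on a log axis. Points are genes, red and blue where the unadjusted edgeR p was under 0.05. The cloud is centred on 0, Bc1 lies at -1.29 with a standard error of 0.30, and Eomes at 2.61 and S100a9 at -1.50 have standard errors of 1.10 and 0.65.

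The leading genes by p-value were mostly noncoding or low in abundance where they were higher, and mostly protein-coding where they were lower. Of the 12 higher genes with the smallest p, 2 were protein-coding, 5 lncRNAs and 5 pseudogenes, and of the 12 lower genes 10 were protein-coding and 2 lncRNAs. Among all 325 higher genes, 20.9% were pseudogenes, against 3.35% of the 239 lower genes and 6.6% of the genes tested. Protein-coding genes made up 64.3% of the higher genes, 81.2% of the lower genes and 82% of the genes tested. These shares are a description, since the genes were picked by their p-values, and pseudogene counts are uncertain because reads from near-identical parent genes can be assigned to them.

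Lilr4b and Ppl were the protein-coding genes among the 12 higher ones. Lilr4b (chr10:51480612-51486329, GRCm38.p6), a myeloid cell surface receptor of the immunoglobulin superfamily, lay between 0.191 and 0.626 CPM in TDP-PBS, with a median of 0.386. In immunized mice it lay between 0.195 and 1.46 CPM, with a median of 0.64, and 13 of 22 mice were above every TDP-PBS mouse. Its log2 fold change was 0.84 ± 0.25 (SE), with a 95% interval of 0.34 to 1.35 and an unadjusted edgeR p of 0.00142. The estimate was 0.57 for TDP10 + 12 and 1.03 for TDP15 against the shared TDP-PBS mice. In ctrl PBS the median of Lilr4b was 0.257 CPM, farther from immunized mice than TDP-PBS was. Lilr4b has a closely related neighbouring copy, so the assignment of its reads is uncertain.

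Ppl (chr16:5086291-5132481), which encodes the cell junction protein periplakin, had a median of 1.36 CPM in TDP-PBS (1.09 to 2.42) and of 2.07 CPM in immunized mice (1.29 to 3.19). The groups overlapped, and 7 of 22 immunized mice were above all TDP-PBS mice. The log2 fold change of Ppl was 0.53 ± 0.16 (SE), with an unadjusted edgeR p of 0.00146. The estimates were 0.73 for TDP10 + 12 and 0.34 for TDP15. In ctrl PBS the median of Ppl was 1.16 CPM, again farther from immunized mice.

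The noncoding RNA AU022754 (chr15:85581142-85593708) had the smallest p of the higher genes. It lay between 0.296 and 0.963 CPM in TDP-PBS, with a median of 0.708, and between 0.497 and 1.74 CPM in immunized mice, with a median of 1.13. In 14 of 22 immunized mice it was above the TDP-PBS range, and its log2 fold change was 0.70 ± 0.18 (SE). The ctrl PBS median of AU022754 was 1.40 CPM. Another lncRNA, 1500002C15Rik (chr4:155725339-155734470), had medians of 0.955 CPM in ctrl PBS, 0.634 CPM in TDP-PBS and 1.01 CPM in immunized mice, with a log2 fold change of 0.59 ± 0.16 (SE). The other 8 higher genes, Gm44705, Gm8730, Gm30371, Gm15418, Tubb4b-ps2, Gm34110, Gm4852 and Gm10247, had log2 fold changes from 0.37 for Gm34110 to 0.80 for Gm15418. Of these 8, Gm8730 and Gm10247 had a ctrl PBS median below that of TDP-PBS, and the others had one above it. Picking genes by their difference from TDP-PBS favours genes where TDP-PBS lies apart from the other groups. The ctrl PBS medians of picked genes, above and below, are therefore a description and not evidence of a return to control levels.

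Ptgis and Dmp1 were among the lower genes. Ptgis (chr2:167203194-167252150), the prostacyclin synthase of vessel walls, lay between 0.667 and 3.58 CPM in TDP-PBS, with a median of 1.86. In immunized mice it lay between 0.494 and 1.85 CPM, with a median of 1.14, close to the ctrl PBS median of 0.987 CPM. The groups overlapped widely, with 2 immunized mice below the TDP-PBS range, and the log2 fold change was -0.67 ± 0.20 (SE, unadjusted edgeR p 0.0015). Dmp1, a phosphoprotein best known from bone and tooth matrix, was at 1.66 to 7.21 CPM in TDP-PBS (median 2.82) and 1.42 to 3.61 CPM in immunized mice (median 2.23). For Dmp1 the log2 fold change of -0.52 went to -0.31 when TDP-PBS mouse 91, the highest, was left out. The ctrl PBS median of Dmp1 was 2.85 CPM, close to that of TDP-PBS.

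Several of the 12 lower genes had small differences with small standard errors. Their separation from TDP-PBS is part of how they were picked and is no further support. Taf3 (chr2:9914552-10048609), a subunit of the general transcription factor TFIID, lay between 27.2 and 34.5 CPM in TDP-PBS and between 21.8 and 31.2 CPM in immunized mice. In 18 of 22 immunized mice it was below every TDP-PBS mouse, although the log2 fold change was only -0.16 ± 0.05 (SE). The ctrl PBS median of Taf3 was 25.8 CPM, against 28.0 CPM in TDP-PBS and 25.5 CPM in immunized mice. Phlda3, a p53-induced inhibitor of Akt signalling, had medians of 12.3 CPM in ctrl PBS, 17.6 CPM in TDP-PBS and 15.1 CPM in immunized mice, with 13 of 22 immunized mice below the TDP-PBS range and a log2 fold change of -0.23 ± 0.07 (SE).

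Smg8, which restrains the kinase of nonsense-mediated decay, had a log2 fold change of -0.15 ± 0.05 (SE), and its median was 35.6 CPM in TDP-PBS and 32.2 CPM in immunized mice. Kcnj2, an inward rectifier potassium channel, was at -0.24 ± 0.08 (SE) and Il17d, a cytokine of the interleukin-17 family, at -0.23 ± 0.07 (SE). Lzts3, a postsynaptic scaffold protein, was at -0.16 ± 0.05 (SE). Its medians were 295 CPM in ctrl PBS, 245 CPM in TDP-PBS and 217 CPM in immunized mice. In the same order the medians were 13.5, 15.8 and 13.6 CPM for Kcnj2 and 14.0, 14.8 and 12.1 CPM for Il17d. Smg8 had a ctrl PBS median of 30.2 CPM. For the remaining lower genes the log2 fold change was -0.54 for the histone gene H2ac24, -0.52 for the lncRNA Gm46845 and -0.33 for Ankrd23, whose product binds titin in muscle. None of these genes passed the adjusted edgeR threshold.

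Bc1 had the smallest p of all genes. It is a short noncoding RNA made by RNA polymerase III in neurons, carried into dendrites and known as a repressor of local translation. Its GENCODE transcript lies on the plus strand at chr7:144914470-144914637 (GRCm38) and is 168 bases long. The sequence is shown because Bc1 was the only gene called by edgeR with the expression filter, in the contrast within females given further on. The capitals mark its longest run of adenosines, 23 bases at positions 77 to 99.
Bc1: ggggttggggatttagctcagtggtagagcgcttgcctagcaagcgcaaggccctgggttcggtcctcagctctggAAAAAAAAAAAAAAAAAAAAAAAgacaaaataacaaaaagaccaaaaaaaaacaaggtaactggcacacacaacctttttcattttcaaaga
Of its bases, 41.7% are adenosine. The first part of Bc1 resembles a family of short interspersed repeats, so reads from such repeats and from Bc1 may not be fully separable. The libraries were made after mRNA isolation.

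In TDP-PBS the 10 Bc1 values ran from 170 to 3224 CPM with a median of 452, and in the 22 immunized mice from 107 to 695 CPM with a median of 222. The 4 TDP-PBS females had 277, 581, 840 and 3224 CPM, and the 6 TDP-PBS males 170, 184, 249, 407, 497 and 759 CPM. TDP-PBS mouse 82 was thus far above all others, and 3 immunized mice were below the TDP-PBS range. The log2 fold change was -1.29 ± 0.30 (SE), with a 95% interval of -1.89 to -0.69, an unadjusted edgeR p of 7.34e-05 and an adjusted p of 0.999964. Without mouse 82 it was -0.58. The ctrl PBS mice lay between 147 and 604 CPM, with a median of 305.

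**Figure D2:**
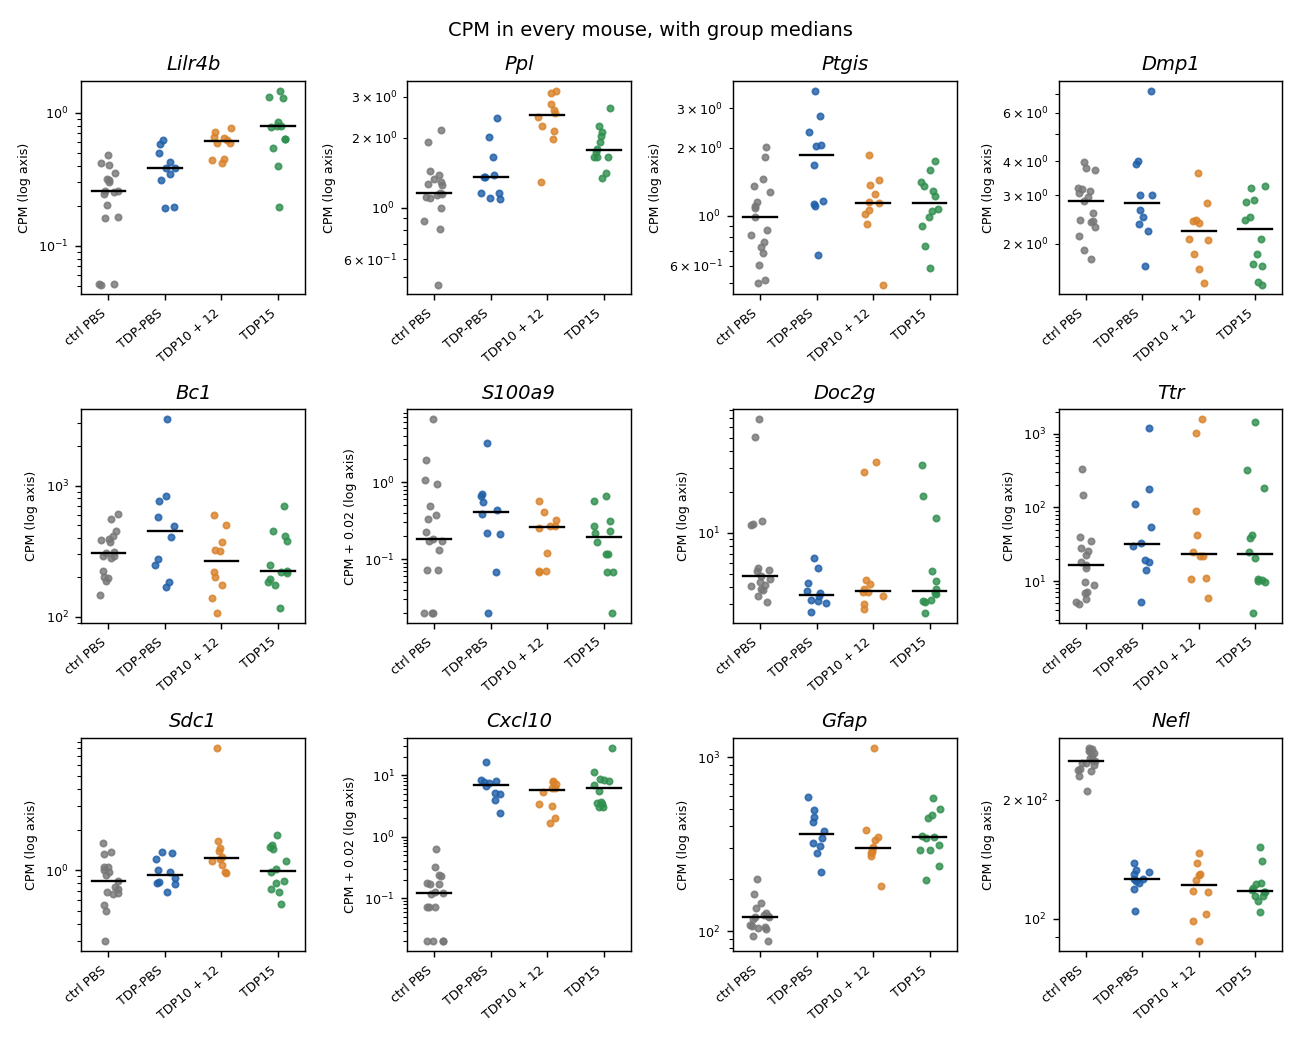
CPM of 12 genes in every mouse on log axes, with group medians as bars. Where a gene had 0 counts in a mouse, 0.02 CPM was added to all its values and medians. Lilr4b and Ppl sit higher and Ptgis lower in both immunized groups, with overlap, Bc1 has 1 TDP-PBS mouse at 3224 CPM, Doc2g has 5 immunized mice at 12.9 CPM or more, and Cxcl10 and Nefl do not overlap between ctrl PBS and rNLS8 mice but do between immunized and TDP-PBS mice.

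Gene lists for immune, glial, neuronal and vascular functions and for neighbouring brain regions were then described by counts and medians, beside the values over all genes. Across 34 lists, 337 genes were tested, of which 6 (1.78%) had an unadjusted edgeR p under 0.05, against 3.1% of all genes. Of the 34 lists, 30 had no such member and 26 had a median log2 fold change within 0.1 of 0. The 95% interval lay within 0.5 log2 for 224 of the 337 genes (66.5%), and 48 further list members had too few counts to be tested.

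**Figure D3:**
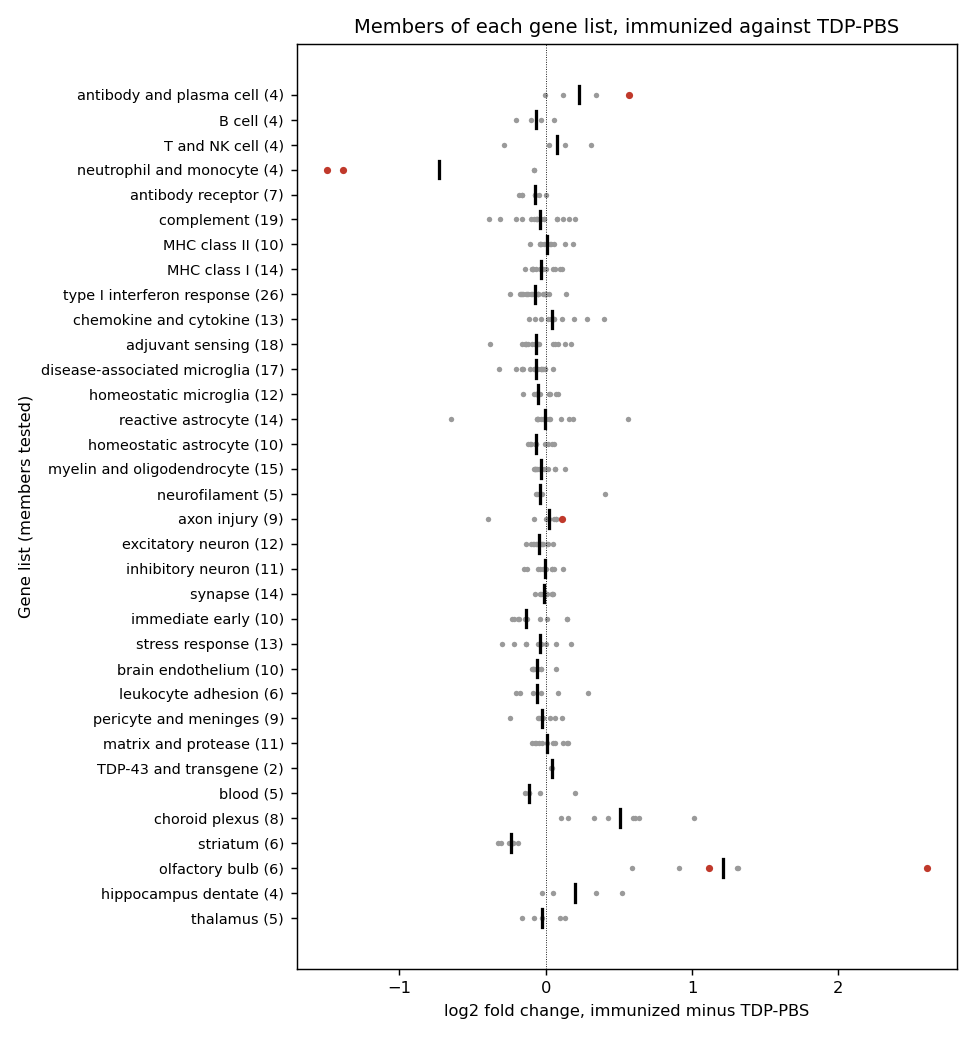
Log2 fold change between immunized and TDP-PBS mice for the members of each gene list, with the number tested in brackets. Grey points are members, red points those with an unadjusted edgeR p under 0.05, and black bars medians. The medians of most lists lie near 0, and the lists that stand apart are olfactory bulb at 1.21, choroid plexus at 0.51 and neutrophil and monocyte at -0.73.

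Genes of antibody-producing cells were low in both groups. Of 19 listed genes for antibodies and plasma cells, the 12 immunoglobulin constant region genes were not analysed here, and 4 of the remaining 7 had enough counts to be tested. Jchain, which joins IgM and IgA into polymers, was at 0.241 to 0.84 CPM in TDP-PBS (median 0.403) and 0.195 to 1.13 CPM in immunized mice (median 0.513). The difference of Jchain was 0.34 log2, with a 95% interval of -0.18 to 0.87.

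Sdc1, a proteoglycan that marks plasma cells but is also made by epithelial cells, had a median of 0.922 CPM in TDP-PBS and 1.17 CPM in immunized mice, and a log2 fold change of 0.57 ± 0.28 (SE, unadjusted edgeR p 0.0457). TDP10 + 12 mouse 301 had 8.11 CPM, and without it the log2 fold change of Sdc1 was 0.22. Derl3, an endoplasmic reticulum protein of secretory cells, differed by -0.01 log2, with an interval of -0.26 to 0.25. The median of the 4 tested members was 0.23, beside -0.00058 over all genes.

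Most lymphocyte markers had too few counts to be tested. Cd3e, part of the T cell receptor complex, had 10 counts in 6 of 10 TDP-PBS mice and 31 counts in 12 of 22 immunized mice. Cd8a, the coreceptor of cytotoxic T cells, had 18 counts in 5 of 10 and 35 counts in 13 of 22 mice. Of 10 B cell genes 4 were tested, and of 24 T and NK cell genes 3 were not analysed here and 4 were tested, none at an unadjusted edgeR p under 0.05. Cd79a, a B cell receptor subunit, had a log2 fold change of -0.21 (95% interval -0.61 to 0.19), and Icos, a T cell costimulator, of 0.31 (-0.39 to 1.02). Cd4, the coreceptor of helper T cells, was at 8.36 CPM in TDP-PBS and 6.38 CPM in immunized mice as medians, a log2 fold change of -0.29 (-0.79 to 0.22). Its ctrl PBS median was higher, at 20.0 CPM. Mean Cd3e was only 0.0501 CPM in TDP-PBS and 0.0701 CPM in immunized mice, so Cd4 is not read here as a measure of T cells.

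Neutrophil and monocyte genes had a median log2 fold change of -0.73 over the 4 members tested, 2 of them lower at an unadjusted edgeR p under 0.05. S100a9, a calcium-binding protein of neutrophils, lay between 0 and 3.24 CPM in TDP-PBS with a median of 0.393, and between 0 and 0.646 CPM in immunized mice with a median of 0.206. Its log2 fold change was -1.50 ± 0.65 (SE), and ctrl PBS mice reached 6.55 CPM. The neutrophil granule protein Ngp had a log2 fold change of -1.38 ± 0.65 (SE). A single TDP-PBS mouse, number 26, had 3.24 CPM of S100a9 and 11.4 CPM of Ngp, against 0.691 and 2.27 CPM in the next highest TDP-PBS mouse of each gene, and without it the S100a9 difference was -0.63. Ly6c2, a monocyte surface antigen, differed by -0.08 (-0.79 to 0.63).

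All 7 tested antibody receptor genes, of 10 listed, had 95% intervals within 0.5 log2 either way, and 0 had an unadjusted edgeR p under 0.05. Trim21, the cytosolic antibody receptor, had medians of 1.52 CPM in ctrl PBS, 3.91 CPM in TDP-PBS and 3.48 CPM in immunized mice, with a log2 fold change of -0.08 (-0.41 to 0.26). The neonatal Fc receptor Fcgrt, which recycles IgG, differed by -0.05 (-0.19 to 0.09). Fcgr3, an activating Fc receptor of microglia, differed by -0.18 (-0.43 to 0.07) and Fcrls, a microglial Fc receptor-like protein, by -0.00017 (-0.47 to 0.47). The activating receptor Fcgr4 had too few counts to be tested, with 82 counts over 10 TDP-PBS and 173 over 22 immunized mice.

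All 19 complement genes were tested, with a median log2 fold change of -0.04 and 0 members at an unadjusted edgeR p under 0.05. C1qa, a chain of the initiating C1q complex, had medians of 26.4 CPM in ctrl PBS, 53.4 CPM in TDP-PBS and 51.6 CPM in immunized mice, a log2 fold change of -0.01 (-0.28 to 0.26). C3, the central component, had medians of 2.29 and 2.56 CPM in TDP-PBS and immunized mice and a difference of 0.16 (-0.41 to 0.74). The extremes were the anaphylatoxin receptor C5ar1 at -0.39 (-0.94 to 0.15) and the complement inhibitor Cd55 at 0.20 (-0.03 to 0.43).

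Genes that sense the adjuvants did not pass the test either. Of 19 listed, 18 were tested, with a median log2 fold change of -0.07 and 0 members at an unadjusted edgeR p under 0.05. Tlr9, the CpG receptor, had 1.44 to 4.28 CPM in TDP-PBS (median 3.02) and 1.74 to 7.10 CPM in immunized mice (median 2.76), with a log2 fold change of -0.08 (-0.37 to 0.22). The lipopolysaccharide receptor Tlr4 differed by -0.07 (-0.43 to 0.28). Ly96, the Tlr4 coreceptor, differed by 0.17 (-0.26 to 0.61), and Tlr1, which pairs with Tlr2, by -0.38 (-0.95 to 0.18).

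Several antigen presentation, interferon and chemokine genes varied widely between mice of 1 group. The 95% interval of the difference lay within 0.5 log2 for 10 of 14 class I and 2 of 10 class II genes. It did so for 11 of 26 interferon and 4 of 13 tested chemokine and cytokine genes. Among 14 MHC class I pathway genes the median log2 fold change was -0.03, among 10 class II genes 0.01, among 26 type I interferon response genes -0.07 and among 13 tested chemokine and cytokine genes 0.04, with 0 members of these lists at an unadjusted edgeR p under 0.05. Cxcl10, an interferon-induced chemokine that attracts T cells, had a median of 0.101 CPM in ctrl PBS. It lay between 2.41 and 16.1 CPM in TDP-PBS (median 6.99) and between 1.66 and 28.0 CPM in immunized mice (median 5.81), a log2 fold change of -0.11 (-0.69 to 0.46). The ranges of both groups overlapped almost completely.

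Isg15, an interferon-induced ubiquitin-like protein, was at 1.93 to 21.2 CPM in TDP-PBS and 0.954 to 19.9 CPM in immunized mice, a log2 fold change of -0.12 (-0.72 to 0.48). Ifit1, an antiviral RNA-binding protein, differed by -0.09 (-0.58 to 0.40), and Ccl5, a T cell chemokine, by 0.04 (-0.50 to 0.58). For the class I molecule H2-K1 the difference was -0.09 (-0.58 to 0.40), and for the class II chain H2-Aa -0.04 (-0.73 to 0.64). The highest member of the chemokine and cytokine list was Tnf at 0.40 (-0.54 to 1.35), with medians of 0.705 and 0.793 CPM. Il1b had too few counts to be tested, with 53 counts in TDP-PBS and 128 in immunized mice. H2-D1, another class I molecule, ranged from 17.8 to 452 CPM in immunized mice and from 18.4 to 255 CPM in TDP-PBS, and its difference of -0.14 had an interval of -1.08 to 0.79.

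No microglial gene passed the test. The 17 disease-associated microglia genes had a median log2 fold change of -0.06, beside -0.00058 over all genes. Of the 17, 1 had a positive estimate, and none had an unadjusted edgeR p under 0.05. This lean was not particular to the list. Estimates were lower for 23 of 26 type I interferon response genes and 9 of 10 brain endothelium genes, and higher for 10 of 13 chemokine and cytokine genes. Genes measured in the same mice are not independent, so these counts of signs are a description and no test. Cst7, a cysteine protease inhibitor of activated microglia, lay between 0.918 and 7.85 CPM in TDP-PBS (median 3.16) and between 0.903 and 6.73 CPM in immunized mice (median 2.82), a log2 fold change of -0.11 (-0.64 to 0.42). Trem2, the lipid-sensing receptor that drives this state, differed by -0.17 (-0.41 to 0.08) and Spp1, a secreted phosphoprotein, by -0.32 (-0.94 to 0.30).

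Aif1, which encodes the microglial stain Iba1, was at a median of 14.8 CPM in TDP-PBS and 11.8 CPM in immunized mice. Its log2 fold change of -0.23 had an interval of -0.47 to 0.01 and an unadjusted edgeR p of 0.0565. All 12 homeostatic microglia genes had intervals within 0.5 log2, with a median of -0.05. The purinergic receptor P2ry12 differed by -0.07 (-0.18 to 0.04) and Tmem119, a microglial surface protein, by -0.15 (-0.32 to 0.01).

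No astrocyte or oligodendrocyte gene passed the test either. Gfap, the intermediate filament of reactive astrocytes, was at 220 to 592 CPM in TDP-PBS (median 360) and 181 to 1132 CPM in immunized mice (median 324), with a log2 fold change of -0.03 (-0.38 to 0.32). The highest value came from TDP10 + 12 mouse 301, and without it the difference was -0.18. Of the reactive astrocyte list, 14 of 15 genes were tested, with a median of -0.01. Its highest member, the protease inhibitor Timp1 at 0.56 (-0.35 to 1.48), rested on the 11.5 CPM of mouse 301 and was -0.12 without it. The lowest was the iron-binding lipocalin Lcn2 at -0.65 (-1.43 to 0.13). The 10 homeostatic astrocyte genes had a median of -0.07, all with intervals within 0.5 log2. All 15 myelin and oligodendrocyte genes had intervals within 0.5 log2, with a median of -0.03, among them myelin basic protein Mbp at -0.03 (-0.22 to 0.15).

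All 12 excitatory neuron genes, all 11 inhibitory neuron genes and all 14 synapse genes had 95% intervals within 0.5 log2, with medians of -0.04, -0.00320 and -0.01. Slc17a7 differed by -0.03 (-0.16 to 0.10), the calcium buffer Pvalb of fast-spiking interneurons by -0.02 (-0.23 to 0.19), and the synaptic vesicle calcium sensor Syt1 by 0.05 (-0.14 to 0.24). Lamp5, which marks a class of interneurons, had medians of 125 CPM in ctrl PBS, 42.7 CPM in TDP-PBS and 41.7 CPM in immunized mice, a log2 fold change of -0.15 (-0.32 to 0.02).

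The neurofilament light chain Nefl, whose protein is released by damaged axons, was at 211 to 271 CPM in ctrl PBS. It lay between 105 and 138 CPM in TDP-PBS (median 126) and between 87.5 and 152 CPM in immunized mice (median 118), with a log2 fold change of -0.06 (-0.17 to 0.05). The medium chain Nefm differed by -0.07 (-0.21 to 0.07) and the heavy chain Nefh, whose human promoter drives the transactivator, by -0.03 (-0.17 to 0.12). The 5 neurofilament genes had a median of -0.04. In the axon injury list, with a median of 0.02, Stmn4, a tubulin-binding protein, had 77.6 to 97.2 CPM in TDP-PBS (median 87.8) and 81.8 to 111 CPM in immunized mice (median 94.2), a log2 fold change of 0.11 ± 0.05 (SE) with an unadjusted edgeR p of 0.0192. It was the only 1 of 9 tested members of this list under 0.05.

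**Figure D4:**
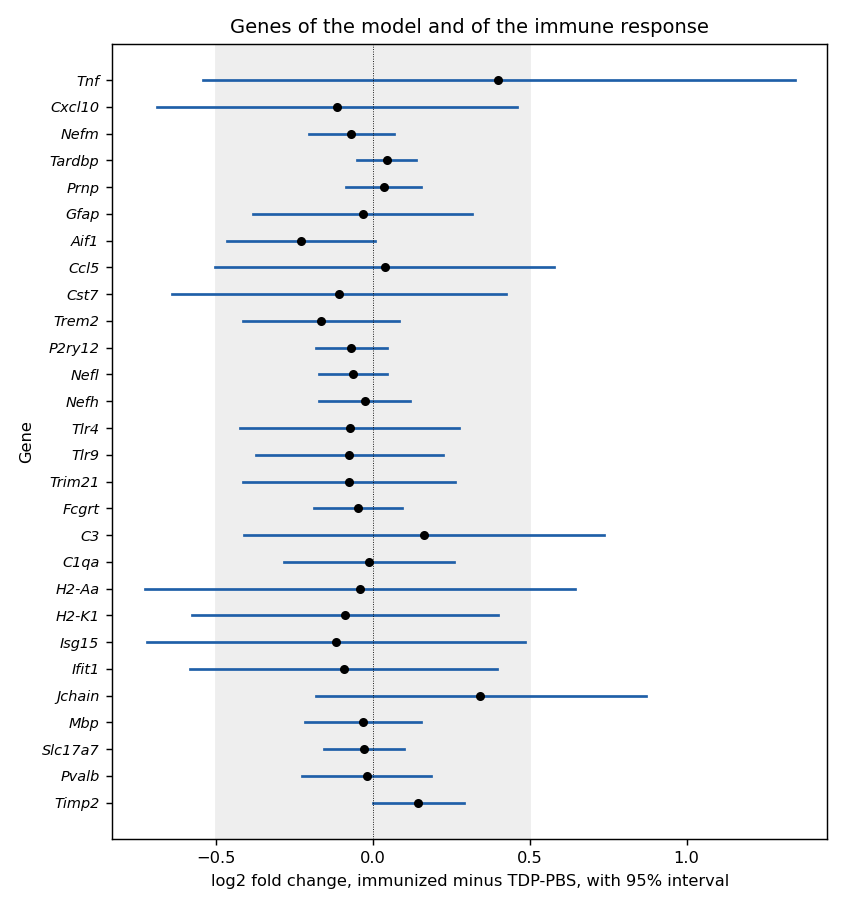
Log2 fold change between immunized and TDP-PBS mice with its 95% interval for genes of the model, of the immune response and of neurons and glia. The grey band marks 0.5 log2 either way. All intervals include 0, those of Tardbp, Prnp, Nefl and Slc17a7 are narrow, and those of Tnf and H2-Aa reach beyond the band.

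Tardbp itself differed by 0.04 (-0.05 to 0.14) and Prnp by 0.03 (-0.09 to 0.15). Immediate early genes had a median log2 fold change of -0.14 over 10 members, with Arc, a synaptic plasticity protein, at -0.23 (-0.75 to 0.30) and 10 of 22 immunized mice below the TDP-PBS range of Arc. The stress response list had a median of -0.04 over 13 members, brain endothelium -0.06 over 10, leukocyte adhesion -0.06 over 6, pericyte and meninges -0.03 over 9, and matrix and protease 0.01 over 11, none with a member at an unadjusted edgeR p under 0.05. Of the latter, Timp2, an inhibitor of matrix metalloproteases, was at 0.14 (-0.00132 to 0.29) with an unadjusted edgeR p of 0.052. Blood genes had a median of -0.11, with haemoglobin Hba-a1 between 12.3 and 229 CPM in TDP-PBS and between 14.9 and 236 CPM in immunized mice.

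Markers of tissue next to the neocortex were examined as well. All 6 olfactory bulb genes had positive estimates, with a median log2 fold change of 1.21, and 2 of them, Doc2g and Eomes, had an unadjusted edgeR p under 0.05. Doc2g, a synaptotagmin-like protein of olfactory bulb neurons, reached 6.56 CPM in TDP-PBS, while 5 immunized mice had 12.9 to 33.3 CPM and the other 17 at most 5.24 CPM. Eomes, a transcription factor of mitral and tufted cells, was at most 0.987 CPM in TDP-PBS and at 2.93 to 14.5 CPM in the same 5 mice, numbers 266 and 277 of TDP10 + 12 and 254, 269 and 346 of TDP15. For Eomes the log2 fold change was 2.61 ± 1.10 (SE). In ctrl PBS, 5 mice also had more than 10 CPM of Doc2g.

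Without the mice above 10 CPM of Doc2g, the median of the olfactory bulb list was -0.33. Doc2g is itself a member of this list, and among rNLS8 mice the cut left out 2 TDP10 + 12, 3 TDP15 and 0 TDP-PBS mice. A lower median was therefore bound to follow, and its sign carries no further information. Ms4a15 at 2.86 and Adamts19 at 2.44, named after their values were seen, were with Eomes the 3 highest estimates of all genes tested. The 5 mice above the TDP-PBS range of Ms4a15 were those named for Eomes, and the same 5 were among the 8 mice above that of Adamts19. How much of the RNA of these mice came from olfactory tissue was not tested beyond these markers.

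The 8 choroid plexus genes were all higher by estimate, with a median of 0.51 and 0 at an unadjusted edgeR p under 0.05. Ttr, the transthyretin made by choroid plexus epithelium, ran up to 1219 CPM in TDP-PBS (mouse 26, next highest 179 CPM) and above that in immunized mice 51 and 243, at 1455 to 1581 CPM. Its log2 fold change was 0.42, with an interval of -1.34 to 2.18. Aqp1, a water channel of the same epithelium, was at 1.01 (-0.07 to 2.11). The 6 striatum genes were lower by estimate, with a median of -0.24, the adenosine receptor Adora2a at -0.33 (-0.80 to 0.15) being the lowest. Hippocampal dentate and thalamus lists had medians of 0.20 and -0.02.

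Within females, 1 gene was called among 18220 (0.00549%), and 1062 (5.83%) had an unadjusted edgeR p under 0.05. The gene was Bc1, lower in immunized females with a log2 fold change of -2.49 ± 0.38 (SE, 4 against 11 mice) and an adjusted edgeR p of 0.000632. Bc1 had a median of 711 CPM in the 4 TDP-PBS females and lay between 107 and 410 CPM in the 11 immunized females, so that TDP-PBS mouse 270, at 277 CPM, overlapped with them. Without mouse 82 no gene was called in females and the smallest adjusted edgeR p was 0.685, with 1139 genes at an unadjusted p under 0.05. In females limma-voom with quality weights called 0 genes, with 1381 at an unadjusted p under 0.05, and DESeq2 called Bc1 alone. Without the 10 mice above 10 CPM of Doc2g, edgeR called 0 genes in females, with 675 at an unadjusted p under 0.05 and a smallest adjusted p of 0.198.

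In males 0 genes were called by edgeR, by DESeq2 and by limma-voom, with 641 (3.52%), 869 and 453 genes at an unadjusted p under 0.05. Bc1 differed by -0.03 in males, with medians of 328 CPM in TDP-PBS and 320 CPM in immunized males. The difference between the sexes in the effect of immunization was tested as an interaction, and 0 genes were called by edgeR, with 1247 (6.84%) at an unadjusted p under 0.05. DESeq2 and limma-voom called 0 as well, with 1482 and 1066. Bc1 had the smallest interaction p, at a female minus male difference of -2.46 ± 0.54 (SE) and an adjusted edgeR p of 0.618. For the astrocyte gene Gfap the estimates were -0.34 in females and 0.22 in males. The male estimate includes mouse 301 at 1132 CPM. By medians, Gfap was lower in immunized mice of both sexes. In females it was at 435 CPM in TDP-PBS and 335 CPM in immunized mice, and in males at 331 and 303 CPM.

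TDP10 + 12 was set against TDP15 to test whether the pooled antigens differed. edgeR called 0 genes, with 1244 (6.83%) at an unadjusted p under 0.05 and a smallest adjusted p of 0.252, limma-voom called 0, with 1442, and DESeq2 called 2, Nos1 and Timp2, with 1594. For Timp2 the TDP10 + 12 minus TDP15 difference was 0.31 ± 0.07 (SE, 95% interval 0.17 to 0.45), with estimates against TDP-PBS of 0.31 for TDP10 + 12 and -0.01 for TDP15. Nos1, the neuronal nitric oxide synthase, named after its value was seen, had a difference of 0.42 ± 0.09 (SE).

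For TDP10 + 12 and TDP15 against the shared TDP-PBS mice, the estimates were -0.49 and 0.17 for Ifit1, -0.52 and 0.15 for Isg15, -0.48 and 0.13 for Cxcl10 and -0.48 and 0.17 for H2-K1. Single mice weigh on some of these. By medians Cxcl10 was lower with both antigens, at 5.70 CPM in TDP10 + 12 and 6.14 CPM in TDP15 against 6.99 CPM in TDP-PBS. The highest TDP15 mouse had 28.0 CPM of Cxcl10. For Ifit1, the TDP10 + 12 estimate includes mouse 242 at 5.17 CPM. The list medians were -0.35 and 0.13 for type I interferon response genes and -0.18 and 0.22 for chemokines and cytokines. The pooled values of these lists thus lie between antigen estimates of opposite sign, and edgeR called the difference between antigens for none of these genes, the smallest adjusted p among the 4 named being 0.616. The interval of the difference between antigens lay within 0.5 log2 for 13644 genes (74.9%).

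In a principal component analysis of the 32 rNLS8 mice over the 500 most variable genes, immunized and TDP-PBS mice overlapped. The first component held 16.5% of the variance and had means of -0.39 ± 5.07 (SD, n = 22) in immunized and 0.86 ± 4.91 (SD, n = 10) in TDP-PBS mice. A permutation test with 100000 resamples, taken on both sides, gave p = 0.517 for the difference, with an adjusted p of 0.821 over the first 3 components. The second component, with 14.8% of the variance, had Xist and Y-linked genes at its ends, and its permutation p was 0.821. For the third component, with 10.7% of the variance, the permutation p was 0.61. Xist was also among the leading genes of the first component, with Gm29804 and LOC108169009 at the other end. When Y-linked genes and Xist were left out, the first component held 18.6% of the variance, with a permutation p of 0.585.

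**Figure D5:**
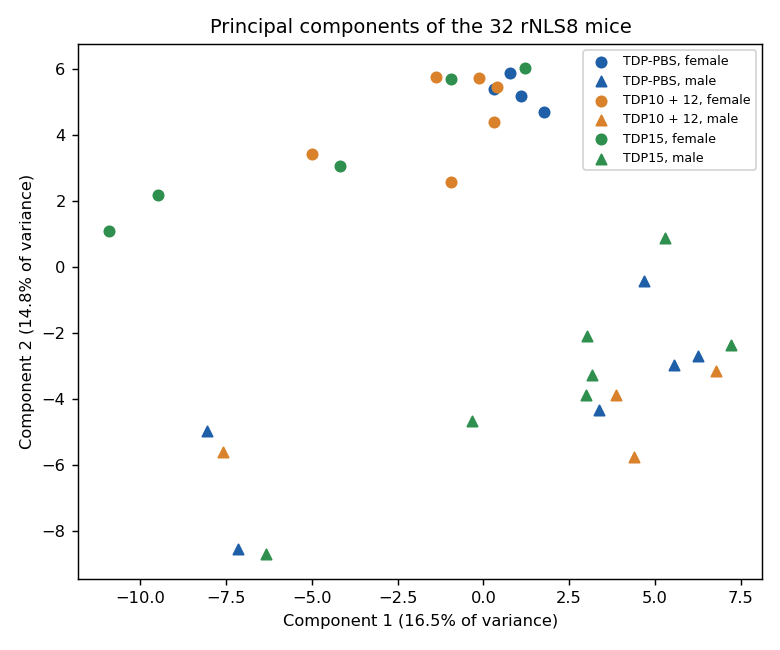
First and second principal components of the 32 rNLS8 mice from the 500 most variable genes, in the units of the component scores. Points are mice, coloured by group, with circles for females and triangles for males. The sexes part along the second component, and TDP-PBS, TDP10 + 12 and TDP15 mice are intermixed.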

How the data were processed

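RNA from about 30 mg of neocortex per mouse was made into mRNA libraries and sequenced in pairs at 100 bases. The authors deposited whole-number counts per gene for 49 mice, aligned to GRCm38.p6, with the tools HISAT2, Bowtie2 and RSEM named in the submitters' processing notes. Which tool gave the counts, and whether strand was used, is not given in the sources used here. Total counts were 17775738 to 21033608 per mouse.

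From these counts, genes passing edgeR's expression filter (minimum count 10, minimum total 15) were fitted with TMM scaling and edgeR 4.0.16 quasi-likelihood tests in R 4.3.3. The fit had 3 levels (ctrl PBS, TDP-PBS, immunized), with further fits by sex and by antigen. P-values were Benjamini-Hochberg adjusted with a threshold of 0.05, after the code was tested on simulated data. DESeq2 1.42.0, limma 3.58.1 and sva 3.50.0 gave alternatives, beside other scalings, filters and leaving out each mouse. DESeq2 was run on the table without edgeR's expression filter. The floor of 3 counts covers counting error only.

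Named genes were the 12 smallest p-values in each direction, the highest and lowest tested member of each list, a fixed set of genes, and every called gene. The members and lists were chosen with earlier results of these data known. Each mouse was a separate animal and its number gave no pairing.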

Additional observations from a re-analysis of the deposited data

Results flagged for a closer look

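Among the named genes, single mice lay farther from the rest of their group than Dixon's 95% value allows in 24 of 230 gene and group combinations. The distances were taken on log2 CPM with a prior count of 2, while values below are CPM. On that scale Bc1 in TDP-PBS mouse 82, at 3224 CPM, was not among the 24. Only TDP-PBS and TDP10 + 12 (10 mice each) were examined in this way, since the critical values used end at 10 samples, so TDP15 (12 mice) and ctrl PBS (17 mice) were not. Chance gives about 1 in 20, or 11.5 here, for genes chosen without regard to their values. Many named genes were chosen by small p or as extremes of their lists, which favours genes with 1 far mouse. The count of 24 is therefore a description and no test against 11.5. The 24 values came from 10 mice, and genes measured in 1 mouse are not independent.

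TDP10 + 12 mouse 301 gave 8 of them. It was high for Sdc1 at 8.11 CPM, Timp1 at 11.5 CPM, Gfap at 1132 CPM, Cdkn1a at 221 CPM, Prnp at 1672 CPM and Cd55 at 12.0 CPM, and low for Lzts3 at 158 CPM and Lamp5 at 24.1 CPM. TDP10 + 12 mouse 242 was low for Ifi27l2a at 0.853 CPM, Clec7a at 0.502 CPM, C1qa at 23.8 CPM, Ifit1 at 5.17 CPM and Gm10247 at 1.91 CPM. In the same group, mouse 51 was low for Fcrls at 3.29 CPM.

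In TDP-PBS, mouse 91 was high for Gm30371 at 1.18 CPM and Ankrd23 at 4.44 CPM, and mouse 233 was low for Gm44705 at 0.539 CPM and Gm4852 at 0.0490 CPM. TDP-PBS mouse 251 was low for Ifi27l2a at 2.41 CPM and Tlr9 at 1.44 CPM. Mouse 124 was high for Taf3 at 34.5 CPM and mouse 26 for Aqp1 at 3.60 CPM. Mouse 217 was low for Neurod6 at 45.5 CPM and mouse 270 for Nefl at 105 CPM.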

How the results depend on the processing

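No gene was called between immunized and TDP-PBS mice under any alternative run, nor when any of the 32 mice was left out (0 to 0 calls). Leaving out each mouse gave 454 to 829 genes at an unadjusted p under 0.05 and 14299 to 14559 genes with an interval within 0.5 log2. That unadjusted count was 2241 of 39179 genes with no filter and 891 with limma-voom, against 564. In females the single call was lost, to 0, with limma-voom, without TDP-PBS mouse 82 and without the mice above 10 CPM of Doc2g. Between antigens, 1 gene (Slc6a5) was called with no filter and 2 (Nos1, Timp2) with DESeq2. Of 1150 gene values under alternatives, 42 changed sign, 35 of them by less than 1 SE of the reported value. Scaling to the library total gave 0.0066 for Derl3 and 0.0076 for Fcrls, and the fit of the 32 rNLS8 mice alone gave 0.0023 for Fcrls. limma-voom gave -0.018 for Blnk, -0.13 for Clec7a, -0.096 for Egr2, 0.080 for Fcrls, 0.12 for Hba-a1, 0.0016 for Isg15, -0.044 for Nlrc5, -0.040 for Tbx21, -0.13 for Timp1 and 0.00477 for Tlr4. Leaving out mouse 301 and mouse 82 in turn gave, in this order, 0.016 and -0.053 for Fcrls, -0.0098 and 0.026 for Prnp, -0.12 and 0.56 for Timp1, -0.025 and 0.032 for C1qa, -0.18 and 0.12 for Cst7, -0.18 and 0.059 for Gfap, -0.015 and 0.24 for H2-Aa, -0.094 and 0.050 for H2-D1, -0.060 and 0.10 for H2-Eb1, -0.037 and 0.16 for Ly6c2, and -0.021 and 0.012 for Mbp. Without the mice above 10 CPM of Doc2g the values were 0.010 for C1qa, -0.24 for Egr2, -0.56 for Eomes, 0.023 for Gfap, 0.083 for H2-Aa, 0.021 for H2-D1, 0.048 for H2-Eb1, -0.016 for Sall1 and -0.55 for Tbx21. Without those above 300 CPM of Ttr they were 0.075 for C1qa, 0.0037 for Cxcl10, 0.018 for Derl3, 0.0066 for Fcrls, 0.021 for Gfap, 0.094 for H2-Aa, -0.27 for Kcnj13, -0.010 for Syt1 and 0.039 for Tlr4. The olfactory bulb median, 1.21, became 0.61 with limma-voom and -0.33 without the Doc2g mice. The cause was not tested, since leaving out mice by Doc2g, a member of that list, was bound to lower its median. The alternatives that leave out mouse 82, mouse 301 or marker-high mice were chosen after seeing the data. No paired analysis was possible because every mouse is a separate animal with its own number.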
